A study of Mus musculus with 6 samples.

Results

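The immunoglobulin constant genes encode the part of an antibody chain that sets its class. The 10 genes described here were taken by name from a table of 31319 genes: the heavy chain genes Igha, Ighm, Ighd, Ighg1, Ighg2b, Ighg2c and Ighg3, the kappa light chain gene Igkc and the lambda light chain genes Iglc1 and Iglc2. All 10 were found. They were read in polyadenylated RNA of the main olfactory epithelium, the tissue of the nose where odours are sensed, from male C57BL/6 mice aged 5 months. The labels place 3 libraries in the miR-200b/a KD group, whose mice had miR-200b and miR-200a, a pair of microRNAs, knocked down, and 3 in the NC group, which the table's headers call controls. The method of the knockdown, the cells it acts in and any treatment of the NC mice are not given in the sources. No label ties a library to a mouse of its own, so p-values measure only how far these libraries spread, which may be technical. Where 3 values are given for a group, they stand in the order of its replicate numbers.

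An antibody is built of heavy and light chains, each with a variable part that binds antigen and a constant part. A B cell first makes IgM and IgD, whose constant genes Ighm and Ighd lie nearest to the variable segments. On activation it can recombine its DNA so that the same variable part is joined to a constant gene further along the locus, which gives IgG, IgE or IgA. Plasma cells, the end stage of that path, secrete the product in large amounts. In mucosal linings such as that of the nose, plasma cells of the IgA class lie beneath the epithelium, and the polymeric immunoglobulin receptor carries IgA joined by the J chain across to the surface.

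The heavy genes lie in 1 cluster on the minus strand of chromosome 12 (build GRCm38), in the order Ighm (113418558 to 113422730), Ighd (113406604 to 113416324), Ighg3 (113356224 to 113361232), Ighg1 (113325240 to 113330523), Ighg2b (113302965 to 113307933), Ighg2c (113285325 to 113288932) and Igha (113254830 to 113260236). Ighe (113269260 to 113273248), the IgE gene, lies between Ighg2c and Igha and is not among the 10. Igkc has a single exon on chromosome 6 (70726435 to 70726966). Iglc1 (19061618 to 19062071) and Iglc2 (19198396 to 19200351) lie on chromosome 16. C57BL/6 mice carry Ighg2c where some other strains carry Ighg2a.

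The results turn on which IgG subclass gene the reads came from, so the hinge exon of each, the short second exon that joins the antibody's arms to its stem, is shown from the GENCODE transcripts. It reads 5′ to 3′ on the minus strand of GRCm38, and capitals mark the in-frame TGT and TGC codons, which encode cysteine:
Ighg3, chr12:113360529-113360576: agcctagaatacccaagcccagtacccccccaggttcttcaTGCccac
Ighg1, chr12:113329844-113329882: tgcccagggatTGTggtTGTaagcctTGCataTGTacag
Ighg2b, chr12:113307261-113307326: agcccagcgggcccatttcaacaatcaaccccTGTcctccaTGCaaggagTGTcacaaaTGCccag
Ighg2c, chr12:113288263-113288325: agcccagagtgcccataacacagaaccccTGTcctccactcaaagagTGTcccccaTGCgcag
These exons hold 48, 39, 66 and 63 bases, with 1, 4, 4 and 3 such codons. Over the whole secreted-form transcripts the closest pair, Ighg2b and Ighg2c, shared 86.4% of 1111 aligned bases. The other IgG pairs shared 74.2% to 77.0%.

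The lambda genes are shown because their separation is less certain. These are the first 60 aligned bases of each, with capitals where Iglc1 or Iglc3 differs from Iglc2:
Iglc2: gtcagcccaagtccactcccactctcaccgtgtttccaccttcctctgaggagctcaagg
Iglc1: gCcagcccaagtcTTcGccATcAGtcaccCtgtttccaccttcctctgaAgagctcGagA
Iglc3: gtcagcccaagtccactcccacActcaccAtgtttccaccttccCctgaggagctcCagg
Iglc1 differs at 12 of these bases and Iglc3, a gene outside the 10, at 4. Over their length Iglc2 and Iglc3 shared 95.4% of 452 aligned bases, so reads of this pair may have been split between them. Stretches of 150 bases, the read length in the series' design, were taken from the secreted-form transcript of each of the 10 genes. None occurred in an annotated transcript of another gene, and exons outside these transcripts were not checked. Aligners allow mismatches, so this does not exclude shared reads.

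Total counts ran from 15704791 to 17618540 per library. The tissue make-up of 2 libraries stood apart. KD-2 held 149 counts of Omp, a protein of mature olfactory neurons, against 24302 in KD-1 and 33430 in KD-3. The NC libraries held 69388, 66437 and 61926, so each KD library lay below each NC library. In NC-1 the secreted protein gene Bpifb9b took 7.66% of all counts, against 0.032% to 1.58% in the rest. Fitted changes of the 10 genes, the shares of IgA, Ighg2b and Ighg2c and the medians of the gene lists are therefore also given without both KD-2 and NC-1. The Omp difference between the groups remains among the libraries then left.

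The 10 genes together took a large and uneven part of the RNA. Their share of all counts was 6.74%, 12.1% and 5.10% across KD against 0.515%, 4.09% and 5.62% across NC. NC-1 was lowest for all 10 genes, whereas 32.5% of all tested genes were lowest there. In normalised counts KD-2 was highest for 8 of the 10, all but Ighd and Iglc2. In bulk tissue, fewer plasma cells and less antibody RNA per cell cannot be told apart.

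**Figure D1:**
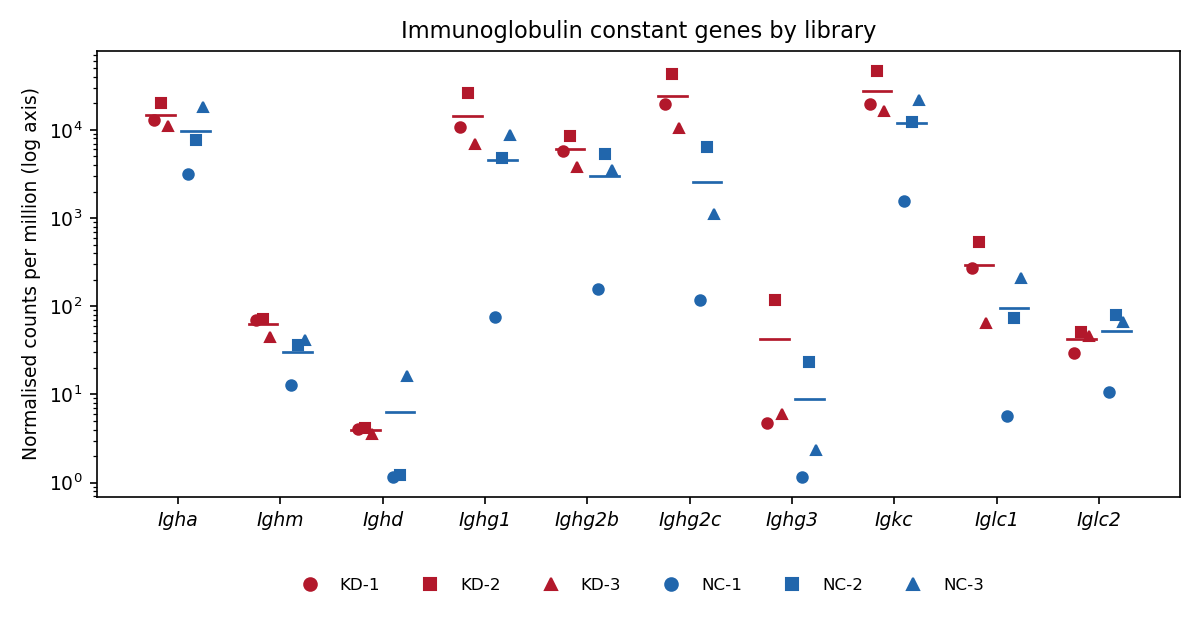
Normalised counts per 1000000 (CPM, log axis) of the 10 constant genes in each library, with KD in red, NC in blue, a symbol per replicate number and a line at each mean of 3 libraries. NC-1 is the lowest point of every gene, from 1.17 CPM for Ighd and Ighg3 to 3194 CPM for Igha, and only Ighm and Ighg2c have all KD points above all NC points.

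None of the 10 passed the test between the groups. With edgeR's quasi-likelihood test and Benjamini-Hochberg adjustment over 18444 genes, 0 of 10 passed the threshold of 0.05, where the whole table had 0.0% past it. At an unadjusted p under 0.05 the count was 0 of 10 in this edgeR fit, against 17.9% of all genes. Other settings put some members under it, such as Ighg2c (0.0034) and Ighm (0.036) with DESeq2. The share of all genes under it there was not counted. DESeq2 gave no p, unadjusted or adjusted, for Ighd and Ighg3. It called 0 of the other 8, where it called 0.821% of all genes higher and 1.07% lower, and limma-voom called 0 of 10. The fitted log2 fold change was above 0 for 8 of 10 genes, against 50.6% of all genes, with a median of 1.13 against 0.01 for all tested genes. Leaving out KD-2 together with NC-1, it was above 0 for 6 of 10, against 52.0% of all genes, and the median was 0.11 against 0.02. NC-1 was lowest for all 10 and KD-2 highest for 8, so a lower change was built into this setting for those genes. All 3 KD values lay above all 3 NC values for 2 of 10 (15.3% of all genes) and below them for 0 of 10 (18.6%).

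Igha, the constant gene of IgA, was the most even of the abundant heavy genes. Its counts were 219818, 265538 and 199764 across KD against 51784, 151600 and 322082 across NC. The groups overlapped, since NC-3 held the most counts and NC-1 the fewest. The normalised level averaged 14729 ± 4944 counts per 1000000 (CPM) in KD against 9664 ± 7614 for NC (SD, n = 3). The fitted log2 change was 0.61 (SE 0.74; edgeR adjusted p = 0.62), and leaving out KD-2 together with NC-1 gave -0.10.

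Ighg2c, the gene of the IgG2c subclass, differed most between libraries. Its counts were 337379, 557078 and 192466 across KD against 1900, 126365 and 19766 across NC. Every KD library lay above every NC library, and the highest level was 364.1 times the lowest. KD averaged 24327 ± 16524 CPM and NC 2560 ± 3410 (SD, n = 3), for a fitted log2 change of 3.25 (SE 1.44; edgeR adjusted p = 0.29). The change was 2.04 when KD-2 and NC-1 were left out together and 5.26 without NC-2, and over all alternatives tried the smallest adjusted p was 0.087, with DESeq2. In the authors' deposited table Ighg2c has a log2 fold change of 3.23 with an unadjusted p of 0.00397.

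Ighg1, the gene of IgG1, and Ighg2b, that of IgG2b, overlapped between the groups. Ighg1 had 183227, 339747 and 125532 counts across KD against 1239, 94874 and 156580 across NC. NC-3 exceeded KD-3, and NC-1 lay far below the rest. Ighg2b had 99214, 112723 and 68083 counts against 2546, 105743 and 62005. NC-2 thus lay close to KD-1 and KD-2 in Ighg2b counts. The log2 fold changes were 1.67 (SE 1.40) for Ighg1 and 1.01 (SE 1.09) for Ighg2b, with adjusted p = 0.48 and 0.58 by edgeR. The change of Ighg1 was 1.09 without NC-1, 2.57 without NC-3 and 0.39 when KD-2 and NC-1 were left out together. That of Ighg2b was 0.45 without NC-1, 1.70 without NC-2 and 0.13 with KD-2 and NC-1 both left out.

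Ighg3, the gene of IgG3, was rare and rested on single libraries. It had 81, 1523 and 108 counts across KD against 19, 453 and 42 across NC. KD-2 and NC-2 were the high libraries of their groups. The fitted log2 change of 2.25 (SE 1.62; edgeR adjusted p = 0.42) was -0.71 without KD-2, 4.50 without NC-2 and -1.22 with KD-2 and NC-1 both left out.

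Ighm and Ighd, the genes of the classes made before switching, held few reads. Ighm had 1197, 935 and 819 counts across KD against 205, 711 and 737 across NC, with each KD library above each NC library. KD averaged 62.2 ± 14.8 CPM and NC 30.1 ± 15.3 (SD, n = 3), for a fitted log2 change of 1.05 (SE 0.45; edgeR adjusted p = 0.28). Leaving out KD-2 with NC-1 gave 0.59. Ighd had 70, 55 and 64 counts against 19, 24 and 292, so that NC-3 alone held more than the other 5 libraries together. Its log2 fold change of -0.67 (SE 1.04) was 1.71 without NC-3 and -1.19 with KD-2 and NC-1 both left out.

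Among the light chains, Igkc exceeded the lambda genes in every library. Igkc, which encodes the only kappa constant part, had 339039, 607976 and 293784 counts across KD against 25333, 238180 and 391286 across NC, a log2 fold change of 1.21 (SE 1.02). Iglc1 had 4628, 7071 and 1177 counts against 92, 1439 and 3708 (log2 fold change 1.61, SE 1.24). Iglc2 had 506, 668 and 825 counts against 174, 1544 and 1182 (log2 fold change -0.31, SE 0.67). The groups overlapped for all 3 light chain genes, with adjusted p = 0.48, 0.45 and 0.79 by edgeR. Leaving out KD-2 together with NC-1 took Igkc to 0.097, Iglc1 to 0.26 and Iglc2 to -0.92. Igkc was 0.62 without KD-2, 0.69 without NC-1 and 2.01 without NC-3, and Iglc1 was 0.83, 1.05 and 2.89 in the same settings.

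**Figure D2:**
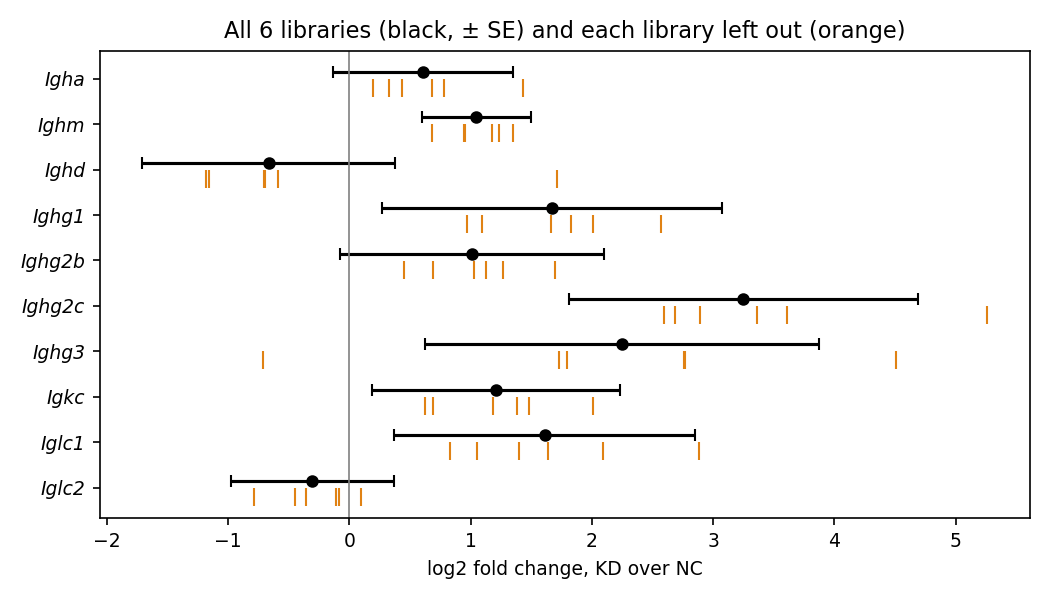
Fitted log2 fold change of KD over NC for each gene with all 6 libraries (black point, bar ± SE) and with each library left out in turn (orange ticks). The bar of 1 SE crosses 0 for Igha, Ighd, Ighg2b and Iglc2 and lies above 0 for the other genes, up to 3.25 for the point of Ighg2c, and the ticks of Ighd, Ighg3 and Iglc2 fall on both sides of 0.

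Per 1000 bases of the secreted-form transcript, the order of the mean levels differed between the groups. In KD it was Igkc (51729 CPM per 1000 bases), Ighg2c (21896), Ighg1 (13520), Igha (13390), Ighg2b (5440), Iglc1 (644), Iglc2 (91.8), Ighm (41.7), Ighg3 (39.2) and Ighd (4.92). In NC it was Igkc (22346), Igha (8786), Ighg1 (4244), Ighg2b (2703), Ighg2c (2304), Iglc1 (211), Iglc2 (113), Ighm (20.2), Ighg3 (8.22) and Ighd (7.80). Every pair of neighbours in the NC order overlapped across libraries. In the KD order the values of Igha and Ighg2b, Ighg2b and Iglc1, Iglc1 and Iglc2, and Iglc2 and Ighm did not overlap, while those of the other neighbours did.

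The isotype make-up can be read within a library, where the overall amount of antibody RNA cancels. IgA made up 26.1%, 20.8% and 34.0% of heavy constant counts across KD. Across NC it made up 89.7%, 31.6% and 57.4%. NC-1 was mostly IgA, while NC-2 lay below KD-3, so the groups overlapped. The difference of the means, KD minus NC, was -32.6 percentage points (p = 0.2 by a two-sided exact permutation of 3 against 3, and 0.4 when adjusted over 10 shares). The smallest p this design can give is 0.1. The difference was -17.5 without NC-1 and -14.4 when KD-2 was left out as well.

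IgG, the sum of the 4 gamma genes, was nearly the complement of IgA. It made up 73.7%, 79.1% and 65.8% of heavy counts across KD against 9.88%, 68.2% and 42.5% across NC (two-sided p = 0.2 by exact permutation, adjusted p = 0.4). NC-2 lay within the KD range. IgM made up 0.142%, 0.0732% and 0.140% against 0.355%, 0.148% and 0.131%, and IgD at most 0.052% in any library. Neither difference exceeded the spread between libraries (two-sided p = 0.4 and 0.3 by exact permutation). The 95% exact intervals of the IgA and IgG shares, which cover counting error only, spanned at most 0.497 percentage points, far less than the distances between libraries.

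**Figure D3:**
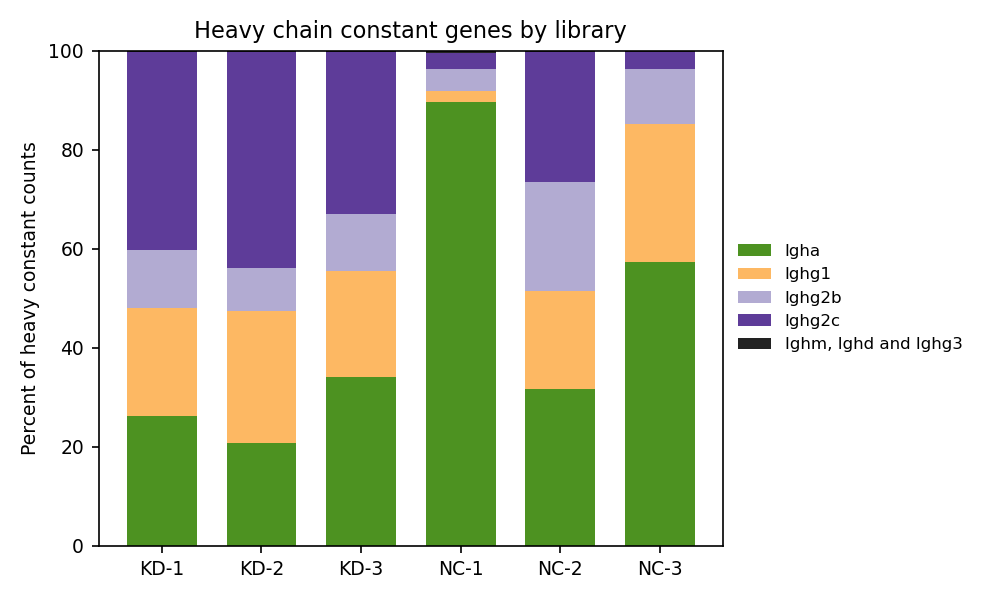
Percent of heavy constant counts taken by each gene in each library, stacked to 100. Igha takes 89.7% in NC-1, and Ighg2c takes 32.8% to 43.6% in the KD libraries, 26.3% in NC-2 and 3.29% and 3.52% in NC-1 and NC-3.

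The leading heavy gene differed between libraries. By counts, Igha led in 4 libraries, KD-3 and all of NC, and Ighg2c led in 2, KD-1 and KD-2. Per 1000 bases of secreted-form transcript the same libraries were led by the same genes. Per 1000 bases of all annotated exons, Ighg2c led in 4 libraries, since its annotated exons are the shortest of the IgG genes (1326 bases, against 2668 for Igha). IgA then made up 19.4% of the heavy total on average in KD and 55.5% in NC.

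Within IgG, the mix of subclasses was alike in the KD libraries and varied in NC. Ighg2c took 54.4%, 55.1% and 49.8% of IgG counts across KD against 33.3%, 38.6% and 8.29% across NC. All KD libraries lay above all NC libraries. The difference was 26.4 percentage points (two-sided p = 0.1 by exact permutation, the smallest possible, adjusted p = 0.4). It was 17.2 without NC-3 and 28.7 when KD-2 and NC-1 were left out together.

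Ighg2b took the lower part in KD. Its share of IgG counts was 16.0%, 11.1% and 17.6% across KD against 44.6%, 32.3% and 26.0% across NC. All KD libraries lay below all NC libraries, with a difference of -19.4 percentage points (two-sided p = 0.1 by exact permutation, adjusted p = 0.4). Leaving out KD-2 with NC-1 gave -12.3. The shares within IgG sum to 100%, so those of Ighg2b and Ighg2c are not independent.

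Ighg1 took 29.6%, 33.6% and 32.5% of IgG counts against 21.7%, 29.0% and 65.7% (two-sided p = 1 by exact permutation). The NC libraries lay on both sides of KD, with NC-3 mostly IgG1. Ighg3 took at most 0.333%, in NC-1, from 19 counts. IgG in NC-1 rested on fewer reads than elsewhere, and the 95% exact intervals there spanned up to 2.6 percentage points.

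**Figure D4:**
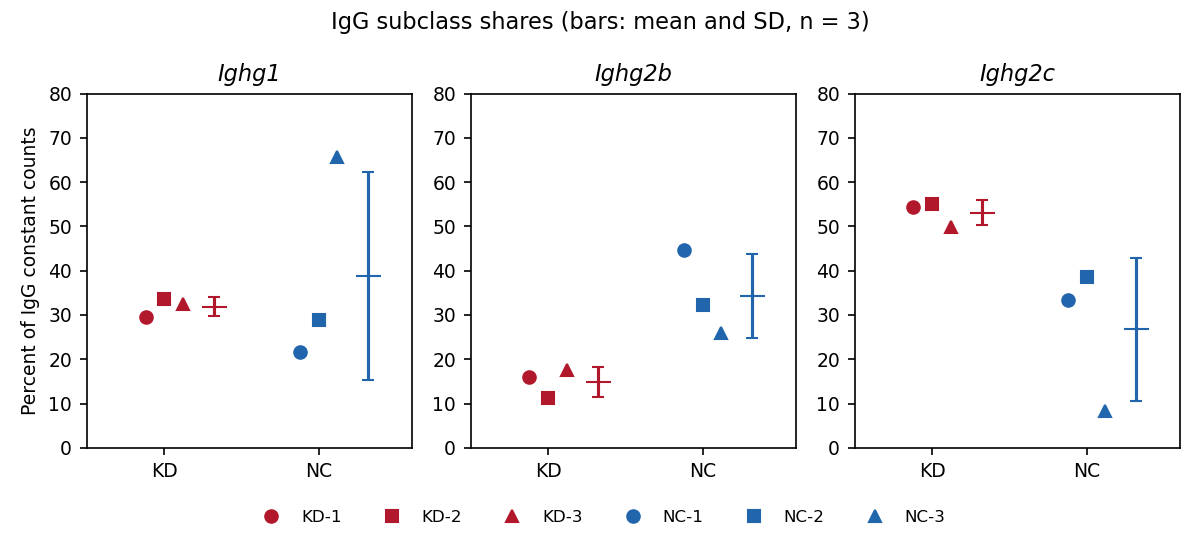
Share of IgG constant counts (percent) taken by Ighg1, Ighg2b and Ighg2c in each library, with the mean and SD of 3 libraries beside the points. Ighg2c lies between 49.8% and 55.1% in KD and at most at 38.6% in NC, and Ighg2b lies at most at 17.6% in KD and at 26.0% or more in NC.

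Lambda genes gave a small part of the light constant counts in both groups. Iglc1 and Iglc2 together took 1.49%, 1.26% and 0.677% across KD against 1.04%, 1.24% and 1.23% across NC. The difference of -0.03 percentage points did not exceed the spread (two-sided p = 1 by exact permutation). Within lambda, Iglc1 took 90.1%, 91.4% and 58.8% in KD and 34.6%, 48.2% and 75.8% in NC. KD-3 fell below NC-3, so the groups overlapped (two-sided p = 0.2 by exact permutation, adjusted p = 0.4).

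Variable genes gave another share for lambda. The 3 Iglv genes took 10.3%, 6.45% and 6.43% of light variable counts across KD against 2.33%, 6.06% and 5.66% across NC, above the constant-gene share in each library. Iglv1 held 2153 to 4577 counts per 1000 Iglc1 counts, but Iglv2 held 82.3 to 506 per 1000 Iglc2 counts. Igkv genes, the kappa variable genes, held 235 to 864 counts per 1000 Igkc counts. The lambda share may be too low from constant genes or too high from variable genes, which was not tested. The strand setting and annotation behind the counts are unknown, and their part was not tested. Heavy variable (Ighv) genes held 137, 113 and 108 counts per 1000 heavy constant counts across KD against 351, 109 and 44.7 across NC. Light and heavy constant counts, each per base of transcript, stood in ratios from 0.849 in KD-1 to 1.46 in NC-3.

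The constant genes outside the 10 were low. Ighe had 328, 151 and 154 counts across KD against 10, 71 and 173 across NC (log2 fold change 1.49, SE 0.88, adjusted p = 0.35 by edgeR, and 1.07 without KD-2 and NC-1). Iglc3 had 100, 194 and 166 against 17, 254 and 158. Iglc4 had 1 count in each of KD-2 and NC-1 and 0 elsewhere.

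The summed level and the list median of plasma cell markers were also lowest in NC-1 and highest in KD-2, though not each marker was. All 13 genes of the plasma cell list had a fitted change above 0, with a median log2 fold change of 0.90, and 0 of 13 passed the edgeR threshold. With KD-2 and NC-1 both left out, 11 of 13 were above 0 and the median was 0.27. Their summed level was 2178 to 4131 CPM in KD and 768 to 2206 in NC. Xbp1, a transcription factor of secretory cells, stood at 1184 ± 373 against 529 ± 196 CPM (SD, n = 3). Ell2, which favours the secreted form of antibody transcripts, stood at 147 ± 24.1 against 91.0 ± 13.8, Cd38, a surface enzyme, at 36.6 ± 17.9 against 14.8 ± 6.93, and Fkbp11 at 12 ± 1.84 against 8.73 ± 1.02. The part of plasma cell number in the levels above was not tested.

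Mzb1, a chaperone that helps plasma cells assemble antibody, was used to set the counts of each gene beside a plasma cell transcript. It had 2953, 3286 and 2401 counts across KD against 239, 2063 and 3162 across NC. Counts of the 10 genes per Mzb1 count were 401, 576 and 368 in KD and 349, 349 and 303 in NC. Their range across libraries was 1.90-fold, with all KD values above all NC values. Igkc alone spanned 29.8-fold in CPM and 1.75-fold per Mzb1 count. Mzb1 itself ran from 14.7 to 252 CPM and followed Igkc over the 6 libraries (Pearson r = 0.991). A narrow range per Mzb1 count follows from that likeness.

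On this scale Igkc and Igha varied less across libraries than the IgG genes. Igkc ran from 106 to 185 counts per Mzb1 count, a range of 1.75-fold, against 27.1-fold for Ighg2c. Igha gave 74.4, 80.8 and 83.2 across KD against 217, 73.5 and 102 across NC, with 5 libraries close together and NC-1 high. Ighg2c gave 114, 170 and 80.2 in KD and 7.95, 61.3 and 6.25 in NC, all KD libraries above all NC libraries. Ighg1 gave 62.0, 103 and 52.3 against 5.18, 46.0 and 49.5, also without overlap, though KD-3 and NC-3 lay close together. Iglc2 went the other way, at 0.171, 0.203 and 0.344 against 0.728, 0.748 and 0.374, with all KD libraries below all NC libraries. The share of all genes without overlap on this scale was not counted. Ighg2b overlapped, at 33.6, 34.3 and 28.4 against 10.7, 51.3 and 19.6.

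**Figure D5:**
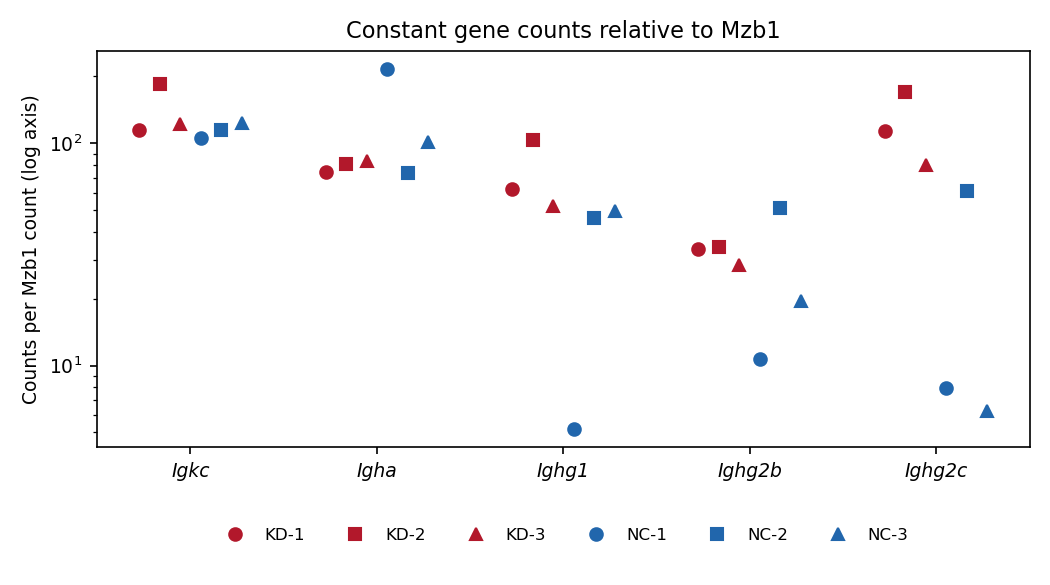
Counts of 5 constant genes per count of the plasma cell gene Mzb1 in each library (log axis), KD in red and NC in blue. Igkc lies within 106 to 185 in all libraries, whereas Ighg2c lies at 80.2 or more in KD and at 61.3 or less in NC.

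B cell genes were also lowest in NC-1 in their list median. Of the 11 tested B cell genes, 10 were above 0 with a median log2 fold change of 0.998, and 0 of 11 passed. With KD-2 and NC-1 both left out, 9 were above 0 and the median was 0.40. Ms4a1, which encodes CD20, had 402, 354 and 198 counts across KD against 47, 268 and 229 across NC. Ighm counts per 1000 Ms4a1 counts ran from 2641 to 4362. Cd79a, a signalling chain of the B cell receptor, stood at 127 ± 82.1 CPM against 63.4 ± 60.1. The exception, Ebf1, stood at 56.6 ± 39.5 against 144 ± 44.6. It had 1115, 177 and 1655 counts across KD against 3112, 2680 and 1847 across NC, and like Omp it had its fewest in KD-2. The other examples, Pax5 (3.24 ± 1.63 against 1.24 ± 0.237 CPM), Bank1 (3.6 ± 2.09 against 1.54 ± 0.903) and Cd22 (5.11 ± 2.47 against 3.10 ± 0.475), were low. The summed level of the list was 270 to 406 CPM in KD and 224 to 341 in NC. That sum includes Ebf1, a large part of it in NC.

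Genes of IgA assembly and export were measured beside Igha. Of 8 tested genes in that list, 6 were above 0 with a median of 0.38, and 0 passed. With KD-2 and NC-1 both left out, 5 were above 0 and the median was 0.16. Jchain, which joins IgA and IgM into polymers, had 95468, 79696 and 64901 counts across KD against 16124, 82547 and 90605 across NC. Per 1000 counts of Igha and Ighm together that was 432, 299 and 324 against 310, 542 and 281. Pigr, the receptor that carries polymeric IgA across the epithelium, averaged 3472 ± 1788 CPM in KD against 1220 ± 687 for NC (log2 fold change 1.51, SE 0.63, adjusted p = 0.28 by edgeR, and 0.63 without KD-2 and NC-1). Ccl28, a chemokine that attracts IgA plasma cells, stood at 118 ± 27.8 against 173 ± 74.0. The integrin genes Itgb7 and Itga4, used in homing to mucosa, stood at 55.0 ± 3.41 against 30.9 ± 12.9 and 50.4 ± 13.7 against 38.1 ± 9.85 CPM.

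Signals known to direct switching were set beside the subclass shares, and their part in those shares was not tested. In culture, interferon gamma favours IgG2c or IgG2a, interleukin 4 favours IgG1 and IgE, and TGF-beta favours IgA. Of 27 tested genes in the list, 22 were above 0 with a median log2 fold change of 0.86, and 0 passed. The median was 0.42 with KD-2 and NC-1 both left out. Ifng, interferon gamma, had 21, 30 and 15 counts against 1, 9 and 13 (log2 fold change 1.75, SE 0.78, adjusted p = 0.29 by edgeR). Each KD library lay above each NC library, as for 15.3% of all genes. KD-3 and NC-3 lay close, at 0.827 and 0.729 CPM. Il4, interleukin 4, had 112, 40 and 128 counts against 267, 220 and 202 (log2 fold change -1.22, SE 0.37, adjusted p = 0.28 by edgeR, and -0.71 without KD-2 and NC-1). Each KD library lay below each NC library, as for 18.6% of all genes. Like Omp, Il4 had its fewest counts in KD-2 and its most in NC-1, and the part of tissue make-up was not tested. Tgfb1 stood at 103 ± 22.3 CPM against 44.5 ± 25. Tgfbr2, a receptor chain for it, stood at 190 ± 33.0 against 105 ± 26.2, Il21, a T helper cytokine, at 1.5 ± 0.493 against 0.443 ± 0.215 and the exonuclease gene Exo1 at 2.84 ± 0.373 against 1.55 ± 0.157.

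Receptors that bind antibody gave a median of 0.87 over 9 tested genes, 8 of them above 0, and 0 passed. The median was 0.43 with KD-2 and NC-1 both left out. Fcgr2b, the inhibitory IgG receptor, averaged 74.4 ± 31.2 CPM in KD against 30.4 ± 15.6 for NC, and Fcgr3 at 75.4 ± 25.3 against 30.4 ± 26.7. Fcgr1, which binds IgG with high affinity, stood at 10.2 ± 1.94 against 5.58 ± 2.31 and Trim21, a cytosolic antibody receptor, at 26.4 ± 7.80 against 16.0 ± 5.16. Fcgrt, the neonatal receptor that recycles IgG, stood at 44.9 ± 3.75 against 42.8 ± 0.524.

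Markers of other cell types also differed between the libraries. Summed macrophage markers (8 of 8 above 0, median 0.95) ran from 988 to 1446 CPM in KD and from 127 to 828 in NC. T cell markers (10 of 10 above 0, median 0.98) ran from 109 to 144 and from 14.6 to 91.2, each with the lowest value in NC-1. Mature olfactory neuron markers (12 of 12 below 0, median -1.80) ran from 97.4 to 4685 and from 7969 to 12831. Serous gland markers (3 of 7 above 0) ran from 10954 to 34410 and from 11019 to 101060, the last in NC-1. Haemoglobin and other blood markers (5 of 5 above 0) ran from 73.3 to 1829 and from 74.0 to 871. With KD-2 and NC-1 both left out, the medians were 0.54 for macrophage, 0.46 for T cell and -0.99 for neuron markers. In that setting the blood median turned from 1.27 to -0.58, with 1 of 5 above 0, and the serous gland median from -0.16 to 0.07. None of these passed the edgeR threshold, and no list had a marker at 0 in all libraries. Their part in the antibody gene levels was not tested.

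The genes most like 2 of the members in log2 CPM over the 6 libraries were found among 18243 tested genes outside the immunoglobulin loci. For Igha they were Psmb4 (Pearson r = 0.998), Vars (0.997), Prr13 (0.995), Cox7a2 (0.994) and Sumf2 (0.994). For Ighm they included Gm10425 (0.9997), Pla1a (0.999), Batf2 (0.998) and Ikzf1 (0.998). With 6 libraries, 1705 and 2045 genes exceeded an r of 0.9 with Igha and Ighm. These rankings therefore describe the libraries, whose tissue make-up differed.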

How the data were processed

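The authors deposited 1 table with raw counts per gene for 6 libraries, plus, per the file headers, their own log2 fold change, an unadjusted p-value and a signal column (the mean of size-factor-scaled counts). The mean was recomputed to within 0.0142%. The submitters' processing notes name, without roles, HTSeq 0.6.0, DESeq, DESeq2, HISAT2 2.1.0, TopHat2, Bowtie2 2.2.3 and the build GRCm38. The sources used here do not give the strand setting or annotation release. The p-value is missing for Ighd and Ighg3.

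Positions, lengths and sequences came from GENCODE M21 (GRCm38), which held 31251 of 31319 gene IDs. Counts were tested with edgeR 4.0.16 (R 4.3.3): TMM, default low-count filter, quasi-likelihood test, 6 libraries, no covariate. DESeq2 1.42.0 and limma-voom (limma 3.58.1) were alternatives, and all were tested on simulated counts. CPM use TMM-scaled library sizes. SE came from the fold change and F statistic. Shares are ratios of counts within a library, tested by exact permutation. The secreted form was the shorter heavy transcript.

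The members and lists were chosen with earlier results of these data known. Named were all members, other constant genes, a fixed set (Jchain, Pigr, Mzb1, Ms4a1, Cd79a, Omp), up to 4 genes per list with the smallest p and the 5 genes most like Igha and Ighm; items withheld for evaluation are not reported here. The Mzb1 scale, Bpifb9b, Ifng, Tgfb1, Fcgrt and the comparisons of light chain variable with constant genes were chosen after values were seen.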

Additional observations from a re-analysis of the deposited data

How the results depend on the processing

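No member passed an adjusted p of 0.05 under any setting tried, in edgeR, limma-voom or DESeq2. For Ighd and Ighg3 DESeq2 gave no p, unadjusted or adjusted. Over all genes DESeq2 called 151 higher and 196 lower in KD, among the higher 1 serous gland gene (Muc5b), and edgeR without both KD-2 and NC-1 called 3 higher (Gm1966, Trim12a and Trim30d), all 4 named after their values were seen. Some fitted log2 changes turned direction, and the cause was not tested. Igha was -0.10 and Ighg3 -1.22 without both KD-2 and NC-1, a setting bound to lower them. KD-2 was the highest library of both genes in CPM and NC-1 the lowest. With limma-voom Ighd was 0.44 and Iglc2 0.063. With each library left out in turn, Ighd ran from -1.18 to 1.71, Ighg3 from -0.71 to 4.50 and Iglc2 from -0.79 to 0.096. The replicate block gave 0.56 for Ighd, 0.064 for Iglc2 and 4.22 for Ighg2c, and called 0 genes. Deviations of same-numbered libraries correlated at 0.305, 0.101 and -0.257, so the numbers were not taken as pairs. Without both KD-2 and NC-1 the list medians were nearer 0 for plasma cell (0.27), B cell (0.40) and class switching (0.42) genes, and turned for blood (-0.58) and serous gland (0.07) genes. Among the shares, KD minus NC in percentage points, IgM became 0.00122 without both KD-2 and NC-1 and lambda became 0.0745 per 1000 bases of annotated exons. With each library left out in turn, Ighg1 of IgG ran from -15.4 to 6.54 and lambda from -0.203 to 0.204. The other 7 shares kept their direction under every setting tried. Shares per base of secreted-form transcript were added after seeing the data.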
